A study of Mus musculus with 10 samples.

Results

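The genes described here are 9 genes by which microglia, the resident macrophages of the brain, are recognised: C1qa, C1qb and C1qc, which encode the chains of complement C1q, and P2ry12, Cx3cr1, Csf1r, Tmem119, Trem2 and Aif1. They were taken from the deposited gene table by matching each Ensembl identifier, without its version, to these symbols, and all 9 of the 9 were found among the 22255 genes of that table. The RNA was total RNA of synaptoneurosomes, membrane sacs in which pre- and postsynaptic parts stay attached, made from the hippocampus of wild-type C57Bl/6J mice. One group of 5 libraries came from mice given vehicle and the other 5 from mice given AM6545 sub-chronically. This compound blocks the CB1 receptor for cannabinoids and is largely kept out of the brain. No other allele or agent is named for either group, and the dose, schedule, sex and age of the animals are not given in the sources used here. The labels do not say if animals were pooled, so the p-values below measure the spread between these libraries only, which may be technical.

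Microglia survey synapses with fine processes and remove some of them during development and in disease. C1q is the recognition molecule of the classical complement pathway: it binds to a surface, activates the proteases C1r and C1s, and so leads to cleavage of C4, C2 and C3, after which phagocytes can take up the tagged structure through complement receptor 3. In the brain, C1q is made mainly by microglia and can be found on synapses. Of the other genes, P2ry12 encodes a receptor for extracellular ADP that guides microglial processes, Cx3cr1 the receptor for the neuronal chemokine fractalkine, and Csf1r the receptor for CSF1 and IL-34 on which microglial survival depends. Trem2 encodes a lipid-sensing receptor that signals through the adaptor TYROBP, Tmem119 a membrane protein used as a microglial marker, and Aif1 the actin-binding protein known as IBA1.

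The 3 C1q chains resemble each other in a collagen-like stretch, shown here because it is the shared feature of the genes whose levels are compared below. In that stretch a glycine codon is followed by a pair of other codons, over and over. A break in this pattern ends a run, so the longest unbroken run need not be the whole stretch. It was read from the coding sequence of each gene's main transcript in GENCODE M21 (mouse build GRCm38). It holds 16 repeats in C1qa (coding bases 184 to 327 of 738), 29 in C1qb (bases 91 to 351 of 762) and 16 in C1qc (bases 202 to 345 of 741), and the capitals mark each glycine codon:
C1qa: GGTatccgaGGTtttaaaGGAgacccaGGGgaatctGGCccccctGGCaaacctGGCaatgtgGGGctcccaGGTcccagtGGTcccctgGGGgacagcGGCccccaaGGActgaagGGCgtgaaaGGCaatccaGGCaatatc
C1qb: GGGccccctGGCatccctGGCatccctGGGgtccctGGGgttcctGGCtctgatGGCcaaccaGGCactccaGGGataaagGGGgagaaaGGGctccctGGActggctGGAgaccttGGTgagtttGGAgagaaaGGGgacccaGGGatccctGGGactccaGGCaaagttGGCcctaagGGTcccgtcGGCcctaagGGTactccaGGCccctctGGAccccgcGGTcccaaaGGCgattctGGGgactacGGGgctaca
C1qc: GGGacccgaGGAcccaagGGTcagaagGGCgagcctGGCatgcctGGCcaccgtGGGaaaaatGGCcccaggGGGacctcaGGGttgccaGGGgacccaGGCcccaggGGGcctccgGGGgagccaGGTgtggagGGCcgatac

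The 3 genes lie side by side on the minus strand of chromosome 4 in GRCm38. C1qb covers bases 136880129 to 136886187, C1qc 136889804 to 136893065 and C1qa 136895917 to 136898803. The gaps between them are 3616 and 2851 bases, and the cluster spans 18675 bases. Despite their common plan, none of the 3 shares a stretch of 31 bases in the same orientation with an annotated transcript of another gene. The same held for P2ry12, Tmem119, Trem2 and Aif1. Such shared stretches made up 1.75% of those of Cx3cr1 and 0.38% of those of Csf1r. Reverse complements were not searched, so bases that overlap a gene on the opposite strand (below) are not counted as shared with it. Within the limit of this search, counts of the C1q genes can be told apart by sequence over their whole length. P2ry12 lies on chromosome 3 (59216272 to 59262871, minus strand), Tmem119 on chromosome 5 (113793729 to 113800516, minus strand), Cx3cr1 on chromosome 9 (119901616 to 120069879, minus strand), and Aif1 (35170991 to 35176068, minus strand) and Trem2 (48346401 to 48354147, plus strand) on chromosome 17. Exons of 3 of the 9 overlap a gene on the opposite strand in this annotation: by 9 bases for P2ry12 (Med12l), 78 for Cx3cr1 (Gm33858) and 873 for Csf1r (Hmgxb3). The use of strand in counting is not given in the sources used here, so reads of these overlaps cannot be assigned with certainty.

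Because C1qb, C1qc and Trem2 had the most similar profiles over the libraries (below), the 250 bases before their RefSeq start sites (build GRCm38.p6) are shown, 5′ to 3′ on the strand of the gene. The capitals mark the letters GAGGAA or their reverse complement TTCCTC, the core bound by PU.1, a transcription factor that microglia require:
C1qb, chr4:136886201-136886450, minus strand: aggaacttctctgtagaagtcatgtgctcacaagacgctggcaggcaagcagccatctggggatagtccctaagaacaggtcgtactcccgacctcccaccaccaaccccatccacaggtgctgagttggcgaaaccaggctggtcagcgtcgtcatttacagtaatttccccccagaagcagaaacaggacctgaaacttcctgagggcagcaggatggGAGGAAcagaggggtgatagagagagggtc
C1qc, chr4:136892915-136893164, minus strand: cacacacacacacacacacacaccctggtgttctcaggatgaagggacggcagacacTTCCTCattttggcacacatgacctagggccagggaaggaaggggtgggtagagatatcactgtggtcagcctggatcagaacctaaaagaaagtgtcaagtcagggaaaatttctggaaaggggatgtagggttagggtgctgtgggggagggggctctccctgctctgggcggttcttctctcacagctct
Trem2, chr17:48346151-48346400, plus strand: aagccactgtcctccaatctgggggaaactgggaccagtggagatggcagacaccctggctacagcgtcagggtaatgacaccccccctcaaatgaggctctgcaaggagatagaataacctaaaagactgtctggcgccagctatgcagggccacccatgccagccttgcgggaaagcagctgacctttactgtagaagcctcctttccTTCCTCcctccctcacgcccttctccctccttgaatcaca

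The match begins 30 bases before the start in C1qb, 193 before it in C1qc and 40 before it in Trem2. Start-site sequences of 300 bases (250 before to 50 after the RefSeq start) were at hand for 6 of the 9 genes. Of these 6, 4 held the PU.1 letters on one strand or the other, the fourth being Aif1, 7 bases before that start. The same letters occur in 28.3% of 32851 mouse start-site sequences of that length. Trem2 also held a match to the AP-1 letters TGANTCA (9 bases before the start) and to the C/EBP letters TTGCNNAA (23 bases after it), which occur in 7.81% and 10.8% of the sequences. P2ry12 held the C/EBP letters 204 bases before its RefSeq start, and Cx3cr1 held none of these 3 motifs. For Aif1 and P2ry12 the RefSeq start is not that of the transcript with most of the gene's counts here (below). The 250 bases before it are 35176053 to 35176302 of chromosome 17 for Aif1, while the first exon of Aif1-203 lies at 35172515 to 35172819. They are 59262986 to 59263235 of chromosome 3 for P2ry12, while the first exon of P2ry12-202 lies at 59220219 to 59220259. The matches describe letters only, and no binding was measured.

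All 9 genes were detected in all 10 libraries, on 192 to 4100 counts per gene and library, and all 9 passed the filter on low counts. Library totals ranged from 18106112 to 25899794 counts. Other cell types were present in the preparation: per kilobase of transcript, the neuronal gene Snap25 stood at 1871 CPM (the count relative to the library total after TMM scaling), the myelin gene Mbp at 4914, the astrocyte gene Aldoc at 1156 and the choroid plexus gene Ttr at 1774 in the mean of the 10 libraries. Markers of macrophages of the brain borders were low. The summed level of the 10 listed was 12.1 to 25.8 CPM per library, against 502 to 720 CPM for the 9 microglial genes. These sums are of unlike genes and not per length, so they do not count cells. The 10 listed markers of blood leukocytes summed to 0.415 to 4.51 CPM and none passed the filter.

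Vehicle replicate 1 stood apart from the other libraries in a way that ran with transcript length. Taking each gene's log2 CPM as a deviation from its own mean over the 10 libraries, the median over all tested genes in this library was 0.49 for genes with transcripts under 1000 bases, 0.28 from 1000 to 2000 bases, -0.10 from 2000 to 4000 bases and -0.17 from 4000 bases up. In the other 9 libraries the median of the shortest class lay between -0.27 and 0.11. The 9 genes differ in length, from 693 bases (Aif1) through 1040 to 1203 bases (C1qa, C1qb, Trem2 and C1qc) to 2076 (P2ry12), 2237 (Tmem119), 3230 (Cx3cr1) and 3962 (Csf1r). The log2 fold changes of the 9 genes and the main correlations are therefore given with and without vehicle replicate 1. Mean levels and the other gene lists are given only with it.

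**Figure D1:**
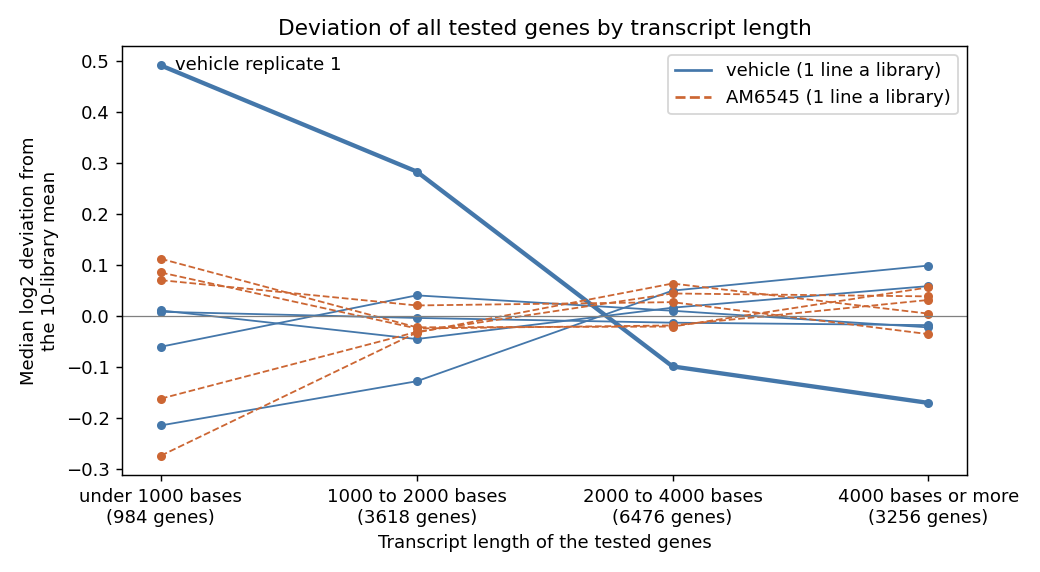
Median log2 deviation of all tested genes from their 10-library mean, by class of transcript length, with 1 line per library. The line of vehicle replicate 1 falls from 0.49 for the shortest class to -0.17 for the longest, while the other libraries stay between -0.27 and 0.11 in the shortest class.

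Compared per kilobase of transcript, the C1q genes were the most abundant of the 9. C1qb stood at 98.1 ± 20.2 CPM per kb (SD, n = 10), C1qc at 76.8 ± 16.5 and C1qa at 54.9 ± 6.71. The receptors followed, with P2ry12 at 46.2 ± 5.25, Csf1r at 31.8 ± 5.83 and Cx3cr1 at 21.3 ± 3.42 CPM per kb. Tmem119 stood at 20.7 ± 3.50, Trem2 at 20.3 ± 4.93 and Aif1 at 16.5 ± 2.85. The order C1qb, C1qc, C1qa held in 10 of 10 libraries. C1qa lay above P2ry12 in 9 of 10, P2ry12 above Csf1r and Csf1r above Cx3cr1 in 10 of 10 each. Cx3cr1, Tmem119 and Trem2 could not be ordered, since Cx3cr1 exceeded Tmem119 in 6 and Tmem119 exceeded Trem2 in 5 of 10 libraries, and Trem2 lay above Aif1 in 9 of 10. Trem2 depended on the length used: with its longest annotated transcript in place of the mean weighted by abundance, its level was 4.73 CPM per kb, the lowest of the 9.

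**Figure D2:**
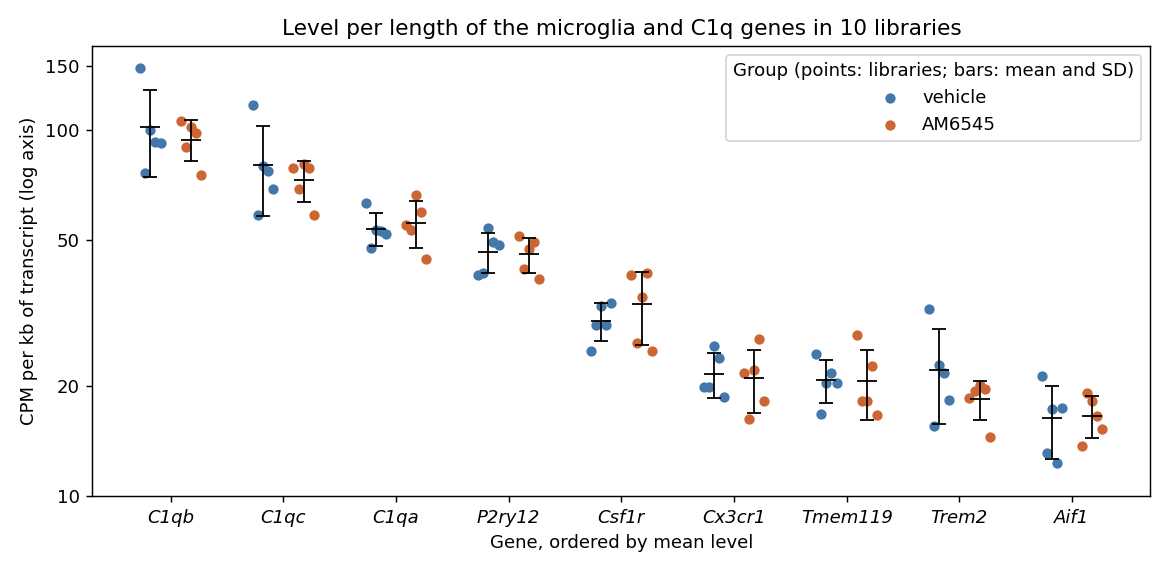
Level of each of the 9 genes in CPM per kilobase of transcript on a log axis, with 1 point per library and bars at the mean ± SD of each group of 5. The 3 C1q genes lie highest, with C1qb at a mean of 98.1 CPM per kb over the 10 libraries, and vehicle and AM6545 points overlap for every gene.

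The 3 chains kept nearly the same proportions. Of the summed C1q level per kilobase, C1qb held 42.9 ± 1.40% in vehicle and 42.2 ± 1.27% in AM6545 libraries, and C1qc 33.8 ± 1.56% and 32.8 ± 0.331% (SD, 5 libraries per group). C1qa held 23.3 ± 2.56% and 25 ± 1.33% (SD, 5 libraries per group). The share of C1qa was 19.3% in vehicle replicate 1 and 22.9 to 26.7% in the other 9 libraries. C1q protein is assembled from equal numbers of the 3 chains.

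Whether AM6545 was accompanied by a change in these microglial transcripts was asked with edgeR's quasi-likelihood test across 14358 genes. None of the 9 genes differed between the groups by more than the spread between libraries: 0 of 9 had an adjusted p under 0.05, against 0% of all tested genes, and each of the 9 had the same adjusted p of 0.9998. At an unadjusted p under 0.05 there were again 0 of 9, against 1.88% of all genes (1.14% higher and 0.738% lower in AM6545). That background, 270 genes, moved with the libraries, to 578 genes without vehicle replicate 2, 504 without AM6545 replicate 3, 414 without vehicle replicate 4 and 165 without AM6545 replicate 4. In 0 of 9 did all libraries of one group lie above all of the other, against 0.293% of all genes. The median log2 fold change of the 9 genes was -0.025, with 3 above 0, and that of all tested genes was -0.0057, with 48.1% above 0. The summed level of the 9 was 632 ± 70.0 CPM with vehicle and 622 ± 89.1 CPM with AM6545 (SD, 5 libraries per group). In tissue fractions such as these, fewer microglial cells or fragments and less RNA in each cannot be told apart.

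For the C1q genes the groups overlapped. C1qb had 161, 83.0, 109, 101 and 100.4 CPM in vehicle replicates 1 to 5 and 115, 97.9, 111, 107 and 82.2 CPM in AM6545 replicates 1 to 5. C1qc had 141, 70.4, 95.8, 93.2 and 83.0 CPM with vehicle and 94.7, 83.0, 97.2, 94.8 and 70.4 CPM with AM6545. Vehicle replicate 1 was the highest of all 10 for both, and vehicle replicate 2 and AM6545 replicate 5 were the lowest. The log2 fold change was -0.11 ± 0.15 (SE) for C1qb (edgeR unadjusted p = 0.468; 95% interval 0.744 to 1.15-fold) and -0.13 ± 0.15 for C1qc (edgeR unadjusted p = 0.394; 0.727 to 1.14-fold). Without vehicle replicate 1 both turned to the other side of 0, at 0.062 and 0.041. C1qa had 65.7, 49.6, 55.4, 55.3 and 54.1 CPM with vehicle and 57.3, 55.4, 69.2, 62.4 and 46.3 CPM with AM6545. Its highest and lowest values were both in AM6545 libraries, replicates 3 and 5, and its log2 fold change was 0.052 ± 0.11 (edgeR unadjusted p = 0.651; 0.879 to 1.22-fold). Without AM6545 replicate 3 it was -0.017.

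Among the receptors, Trem2 had the largest estimated difference of the 9 genes and Csf1r the next largest. Trem2 had 36.1, 17.4, 25.5, 24.2 and 20.4 CPM with vehicle and 20.7, 21.6, 22.4, 21.9 and 16.2 CPM with AM6545. Vehicle replicate 1 was again the highest and AM6545 replicate 5 the lowest, while the other AM6545 libraries lay within 20.7 to 22.4. The log2 fold change was -0.27 ± 0.16 (edgeR unadjusted p = 0.118; 0.656 to 1.05-fold). It was -0.09 without vehicle replicate 1, and -0.37 without vehicle replicate 2 (edgeR unadjusted p = 0.0238, adjusted p = 0.915). Csf1r had 98.6, 116, 131, 116 and 134 CPM with vehicle and 159, 104, 139, 162 and 98.8 CPM with AM6545. The 3 highest values were AM6545 replicates 1, 3 and 4, but AM6545 replicates 2 and 5 lay at the bottom with vehicle replicate 1. Its log2 fold change was 0.15 ± 0.14 (edgeR unadjusted p = 0.292; 0.905 to 1.37-fold).

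P2ry12 and Cx3cr1 had group means that were closer together. P2ry12 had 83.6, 84.4, 112, 103 and 101 CPM with vehicle and 106, 86.6, 98.2, 103 and 81.4 CPM with AM6545, and its estimated log2 fold change was -0.025 ± 0.11 (edgeR unadjusted p = 0.823; 0.837 to 1.15-fold). Its range over the libraries, 1.37-fold from lowest to highest, was the narrowest of the 9 genes, against 2.23-fold for Trem2. Cx3cr1 had 64.3, 64.3, 83.1, 77.2 and 60.3 CPM with vehicle and 70.0, 52.4, 71.4, 86.9 and 58.6 CPM with AM6545, with its lowest value in AM6545 replicate 2 and its highest in AM6545 replicate 4. The log2 fold change was -0.040 ± 0.13 (edgeR unadjusted p = 0.765; 0.801 to 1.18-fold).

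The markers Tmem119 and Aif1 likewise overlapped between the groups. Tmem119 had 54.7, 37.4, 45.6, 48.5 and 45.5 CPM with vehicle and 61.6, 40.6, 40.7, 50.6 and 37.4 CPM with AM6545. The log2 fold change was -0.0033 ± 0.14 (edgeR unadjusted p = 0.981; 0.817 to 1.22-fold). Aif1, the least abundant, had 14.8, 9.09, 12.03, 8.56 and 12.1 CPM with vehicle and 9.52, 13.3, 12.6, 11.5 and 10.6 CPM with AM6545. Its highest and lowest values were both in vehicle libraries, replicates 1 and 4, and the log2 fold change was 0.023 ± 0.15 (edgeR unadjusted p = 0.882; 0.813 to 1.27-fold). With 5 libraries per group the intervals leave room for differences of up to about these sizes, so a smaller change was not detectable here.

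The genes that act with these 9 were likewise not separated by treatment. Fractalkine (Cx3cl1), the neuronal ligand of Cx3cr1, had 662 ± 89.2 CPM with vehicle and 687 ± 83.4 CPM with AM6545 (SD, 5 libraries per group). Of the Csf1r ligands, Il34 had 44.3 ± 6.24 and 41.4 ± 4.67 CPM and Csf1 had 9.66 ± 1.47 and 10.5 ± 1.90 CPM, so that Il34 was the more abundant of the pair, at 28.1 against 2.84 CPM per kb. The Trem2 adaptor Tyrobp had 14.98 ± 4.01 and 14.9 ± 2.57 CPM, and Apoe, a lipoprotein ligand of Trem2, 2851 ± 767 and 2715 ± 742 CPM. In the list of 21 ligands and partners, 16 passed the filter, 0 had an unadjusted p under 0.05 and 9 lay above 0, with a median log2 fold change of 0.0099.

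Of 42 other genes of the complement pathway, 41 were in the table and 22 passed the filter on low counts. C3, which C1q activation leads to, had 3 to 13 counts per library and was not tested, and C1rb and Cfd had 0 counts in every library. C4b had 14.7 ± 4.47 CPM with vehicle and 12.97 ± 3.32 CPM with AM6545. The complement receptor 3 subunits Itgam and Itgb2 had 21.8 ± 4.72 and 11.1 ± 0.782 CPM with vehicle and 25.1 ± 4.01 and 10.4 ± 1.84 CPM with AM6545. C3ar1, the receptor for the C3a fragment, was the only tested gene of the list with an unadjusted p under 0.05, at 3.77 ± 0.568 and 2.74 ± 0.632 CPM (log2 fold change -0.45 ± 0.19, edgeR unadjusted p = 0.0288, adjusted p = 0.9998). Of the 22 tested, 5 lay above 0 and the median log2 fold change was -0.13. Choroid plexus markers lay on the same side: 0 of 10 were above 0, with a median of -0.52, and they summed to 74.9 to 5264 CPM over the vehicle and 694 to 4169 CPM over the AM6545 libraries. Their part in the values of the complement list was not tested. The most abundant was Clu, the fluid-phase inhibitor clusterin that astrocytes also make, at 2282 ± 449 and 2023 ± 430 CPM.

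The neuronal side of the same interaction was also measured. All 10 listed neuronal complement inhibitors and synaptic proteins that bind C1q passed the filter, 0 of them had an unadjusted p under 0.05 and 5 lay above 0, with a median log2 fold change of 0.02. Sez6 was the most abundant per kilobase, at 239 ± 34.0 CPM with vehicle and 237 ± 41.3 CPM with AM6545. Of 22 other genes with a C1q domain, 15 passed the filter. Cbln3, which encodes a cerebellin, had an unadjusted p under 0.05, at 0.420 ± 0.147 CPM with vehicle and 1.08 ± 1.30 CPM with AM6545, where it ranged up to 3.38 CPM (log2 fold change 1.40 ± 0.61, edgeR unadjusted p = 0.0369, adjusted p = 0.9998).

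Further microglial genes were not separated by treatment either. Of 30 listed, 29 passed the filter, and 16 of these lay above 0, with a median log2 fold change of 0.0011. Cd33, a sialic acid receptor of myeloid cells, was the single one with an unadjusted p under 0.05, at 3.94 ± 0.590 and 4.96 ± 0.681 CPM (log2 fold change 0.34 ± 0.16, edgeR unadjusted p = 0.0489, adjusted p = 0.9998). Of 24 genes that microglia induce when they respond to injury or infection, 13 passed the filter, with 3 above 0 and a median of -0.20. Tnf reached at most 12 counts in a library and Il1b and Il6 at most 5 each. Ch25h had 0.769 ± 0.446 CPM with vehicle and 0.425 ± 0.159 CPM with AM6545 (log2 fold change -0.84 ± 0.39, edgeR unadjusted p = 0.0485, adjusted p = 0.9998). Among the markers of other cells, Aldh1l1 of astrocytes had an unadjusted p under 0.05 (67.3 ± 6.26 and 81.2 ± 8.52 CPM, log2 fold change 0.27 ± 0.10, edgeR unadjusted p = 0.0147, adjusted p = 0.9998). That was so for 0 of the tested markers of border macrophages, neurons, oligodendrocytes, endothelial cells, choroid plexus and red blood cells.

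The spread between libraries was larger than any difference between the groups, and it was partly common to the 9 genes. The SD of log2 CPM over the 10 libraries exceeded the median of all tested genes (0.21) in 7 of the 9. In AM6545 replicate 5 all 9 lay below their 10-library mean (median deviation -0.29 on the log2 scale), and the same held in vehicle replicate 2 (median -0.29). In AM6545 replicate 2, 8 of 9 lay below it, and in AM6545 replicates 3 and 4, 8 of 9 lay above it. Over all tested genes, the median deviation in vehicle replicate 2 ran from -0.21 (under 1000 bases) to 0.10 (4000 bases or more). In AM6545 replicate 5 the medians of the length classes lay between -0.04 and 0.07. The share of all tested genes below their mean in each library was not counted. Of the 29 other microglial genes, 25 were below their mean in AM6545 replicate 5, 23 in vehicle replicate 2 and 21 in AM6545 replicate 2, against 5 in each of AM6545 replicates 3 and 4. In vehicle replicate 4 they differed from the 9, with 19 of 29 below their mean while 5 of the 9 lay above it. By summed CPM, some lists of other genes were also low in the same libraries. The 10 astrocyte markers summed to 3748 CPM in AM6545 replicate 5, 4284 in vehicle replicate 2 and 4387 in AM6545 replicate 2, the lowest of the 10, against 4478 to 5326 in the others. The neuronal complement inhibitors and C1q-binding proteins summed to 722, 819 and 771 CPM there and to 879 to 956 CPM in the others except vehicle replicate 1 (688 CPM). The summed neuronal markers, at 9025, 8841 and 9049 CPM, lay inside the range of the other libraries (8276 to 10139). As mean log2 CPM, the astrocyte markers were lowest in AM6545 replicate 5 (7.72) and stood at 7.815 in AM6545 replicate 2. In vehicle replicate 2 they stood at 7.92, above vehicle replicates 1, 4 and 5 (7.75, 7.87 and 7.87). Border macrophage markers summed to 25.8 CPM in vehicle replicate 2, the highest of the 10 libraries. The part of these in the levels of the 9 genes was not tested. Total counts were 19606940 in AM6545 replicate 5 and 19868612 in vehicle replicate 2, and the part of depth in this was not tested beyond the relations that follow. Over the 10 libraries none of the 9 genes was related to the library total after adjustment over the 9. The closest was Tmem119, with r = 0.769 (permutation p = 0.0108, adjusted p = 0.0968), rho = 0.73 (permutation p = 0.0196, adjusted p = 0.177) and r = 0.658 without the 2 libraries of most extreme total.

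**Figure D3:**
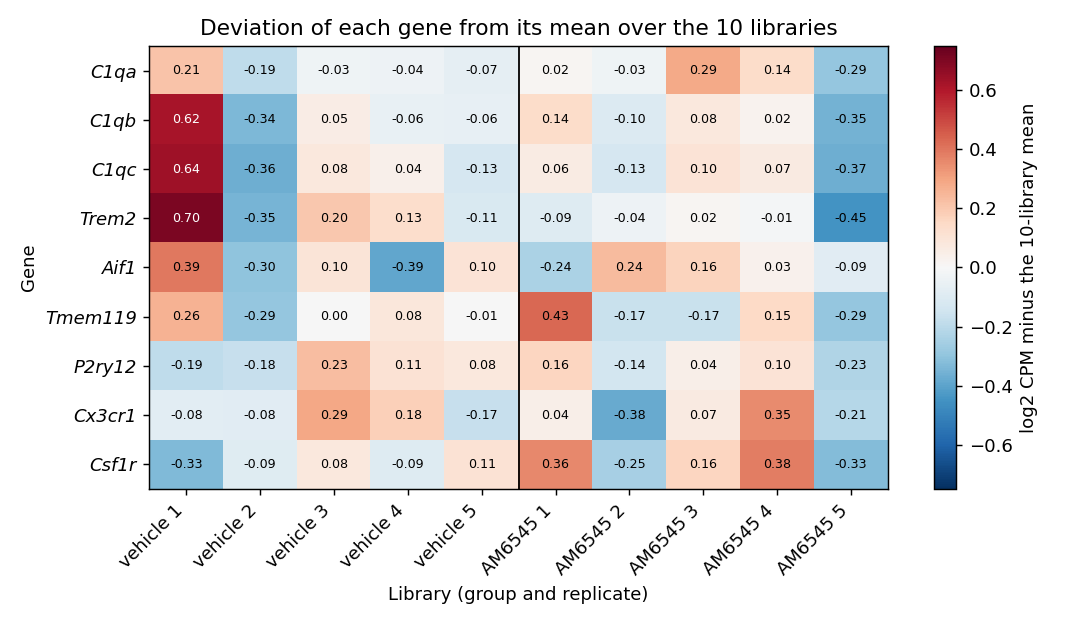
Log2 deviation of each of the 9 genes (rows) from its own mean over the 10 libraries (columns), with the value written in each cell. All 9 cells are below 0 in vehicle replicate 2 and in AM6545 replicate 5, and vehicle replicate 1 is divided between high C1qb, C1qc and Trem2 and low Csf1r and P2ry12.

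Vehicle replicate 1 was the exception to this common movement, because it held the genes in different directions. Trem2 (0.70), C1qc (0.64), C1qb (0.62), Aif1 (0.39), Tmem119 (0.26) and C1qa (0.21) lay above their mean there, and Csf1r (-0.33), P2ry12 (-0.19) and Cx3cr1 (-0.08) below it. The ratio of summed C1q CPM to the summed CPM of P2ry12, Cx3cr1 and Csf1r was 1.49 in this library, 0.766 to 0.842 in the remaining vehicle libraries and 0.752 to 0.972 with AM6545. The 29 other microglial genes were divided by length in the same library: 11 of 15 with transcripts under 2000 bases lay above their mean (median 0.21), among them Spi1 (0.54), Tyrobp (0.49) and Cd68 (0.49), while 5 of 14 longer ones did (median -0.19), with Inpp5d at -0.75 and Itgam at -0.67. After the trend with length was removed from each library, the deviations of vehicle replicate 1 were 0.27 for Trem2, 0.21 for C1qc, 0.17 for C1qb and -0.24 for C1qa, and 0.17 for Cx3cr1, -0.06 for Csf1r and -0.29 for P2ry12. In AM6545 replicate 5 all 9 stayed below 0 after that step, from -0.17 (Aif1) to -0.49 (Trem2), as they did in vehicle replicate 2, from -0.02 (C1qa) to -0.26 (Tmem119). Vehicle replicate 1 also had the highest sums of the response genes, at 245 CPM against 156 to 211 in the other libraries, and of the leukocyte markers, at 4.51 CPM against 0.415 to 2.60. The same library had the highest sum of choroid plexus markers, at 5264 CPM against 74.9 to 4169. Its sums were also highest for endothelial cells and pericytes, at 177 CPM against 88.4 to 151, and for the complement list, at 3526 CPM against 2298 to 3377. By mean log2 CPM it was highest for the complement list (3.45). It was not highest by that measure for choroid plexus (6.24, against 6.25 in vehicle replicate 3) or endothelial cells and pericytes (2.61, against 2.72 in AM6545 replicate 5). The part of these in its C1q levels was not tested.

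Over the 10 libraries, 36 pairs can be formed from the 9 genes, and their Pearson r had a median of 0.465 (from -0.24 to 0.98), with 32 pairs above 0. The p-values given for pairs are two-sided permutation p-values. Those called adjusted were adjusted over the 36 pairs, and those beside rho are unadjusted. C1qb and C1qc were the closest pair, with r = 0.984 (permutation p = 4.0e-05, adjusted p = 0.00144) and rho = 0.92 (permutation p = 0.00054). Without the 2 libraries farthest from the median of C1qb, their r was 0.935, and it was 0.987 within vehicle and 0.974 within AM6545 libraries. Trem2 followed C1qc (r = 0.955, permutation p = 0.00028, adjusted p = 0.00504; rho = 0.88, permutation p = 0.00132) and C1qb (r = 0.921, permutation p = 0.00128, adjusted p = 0.0154; rho = 0.73, permutation p = 0.0199), and without vehicle replicate 1 these were 0.884 and 0.791. C1qa followed C1qc (r = 0.801, permutation p = 0.00473, adjusted p = 0.0426; rho = 0.94, permutation p = 0.00021) and C1qb (r = 0.782, permutation p = 0.00688, adjusted p = 0.0495; rho = 0.88, permutation p = 0.0015), and without the 2 libraries farthest from the median of C1qa these were 0.892 and 0.875. Without vehicle replicate 1, r was 0.958 for C1qb and C1qc, and 0.831 and 0.809 for C1qa with C1qc and C1qb. With the length trend removed, r was 0.959 for C1qb and C1qc. It was then 0.912 and 0.809 for Trem2 with C1qc and C1qb, and lower, at 0.545 and 0.605, for C1qa with C1qc and C1qb. By Pearson r these 5 were the pairs with an adjusted p under 0.05. By rho the set differed. Trem2 and C1qb did not pass (permutation test, adjusted p = 0.119). C1qb and Tmem119 did (rho = 0.83, permutation p = 0.00495, adjusted p = 0.0356), while their r was 0.727 (permutation test, adjusted p = 0.0784).

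**Figure D4:**
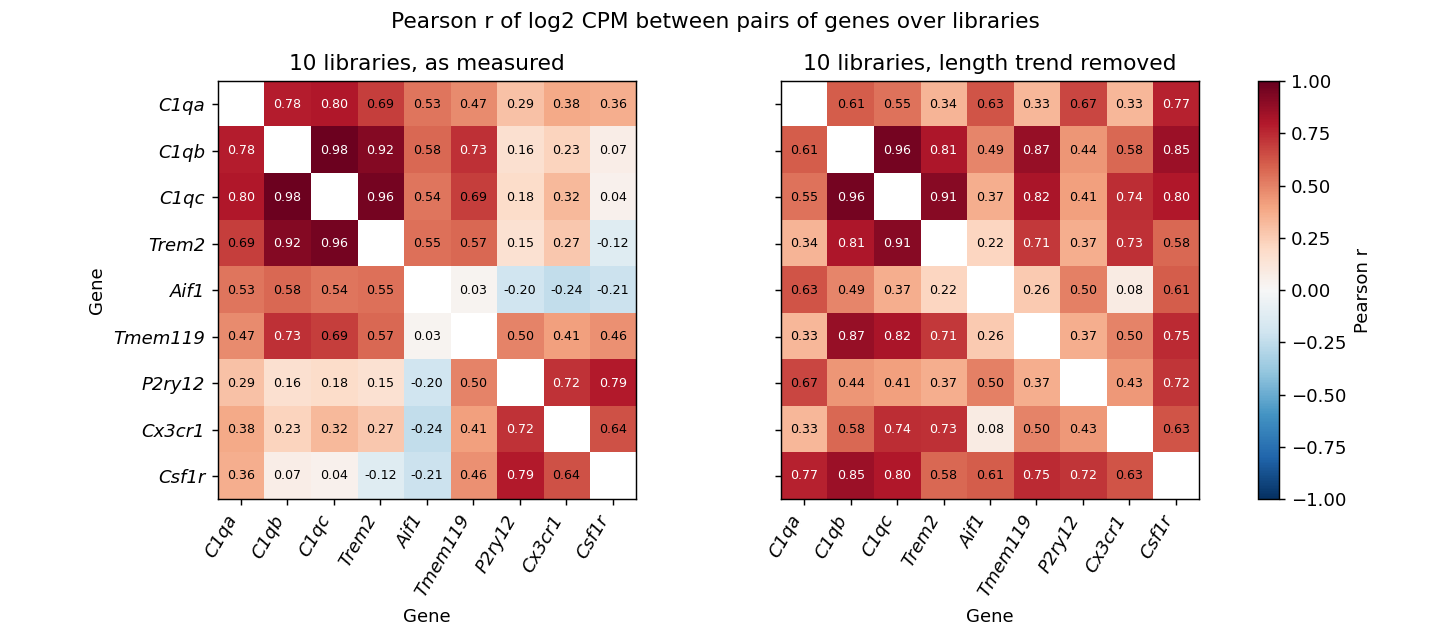
Pearson r of log2 CPM between each pair of the 9 genes (rows and columns) over the 10 libraries, as measured (left) and after the trend with transcript length was removed from each library (right), with r written in each cell. As measured, the cells that join C1qa, C1qb, C1qc, Trem2 and Aif1 to P2ry12, Cx3cr1 and Csf1r run from -0.24 to 0.38, and after removal from 0.08 to 0.85.

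The receptors formed a looser set. P2ry12 and Csf1r had r = 0.791 (permutation p = 0.0102), P2ry12 and Cx3cr1 0.724 (permutation p = 0.0212) and Cx3cr1 and Csf1r 0.638 (permutation p = 0.0491), none of which passed after adjustment (adjusted p from 0.0614 to 0.161). Between the 2 sets, the 15 pairs of C1qa, C1qb, C1qc, Trem2 or Aif1 with P2ry12, Cx3cr1 or Csf1r had a median r of 0.161 (from -0.24 to 0.38). That separation rested on vehicle replicate 1: without it the same 15 pairs had a median r of 0.592, and with the length trend removed from all 10 libraries it was 0.578 (from 0.08 to 0.85). The 10 pairs among C1qa, C1qb, C1qc, Trem2 and Aif1 had a median r of 0.738. It fell to 0.575 with the length trend removed and was 0.716 without vehicle replicate 1. Over all 36 pairs the median rose to 0.667 without this library, and with the length trend removed it was 0.592 and all 36 pairs were above 0 (from 0.08 to 0.96). Aif1 was the weakest partner over the 10 libraries, with negative r to P2ry12, Cx3cr1 and Csf1r (-0.20, -0.24 and -0.21). Without vehicle replicate 1 these were 0.03, -0.21 and 0.04, and with the length trend removed 0.50, 0.08 and 0.61. The counts of Aif1 were also the lowest.

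Among the genes whose profile was most like that of the 9, by mean Pearson r over the 10 libraries with the group means removed, were Sez6l2 (0.685), Selplg (0.684), Lpcat4 (0.677), Ptpre (0.677), Mid1ip1 (0.675), Lrrc24 (0.675), Grn (0.675), Slc29a2 (0.673) and B4gat1 (0.672). Selplg is on the list of other microglial genes, and Grn encodes progranulin, a lysosomal protein that microglia make in quantity. Sez6l2 is a neuronal gene on the list of complement inhibitors. Among the 100 most alike of 14349 genes were 5 of the 29 tested microglial genes, Ctss, Cd68 and Fcgr3 among them. The median of this mean r was 0.431 for the other microglial list, 0.277 for the neuronal complement inhibitors and C1q-binding proteins, 0.154 for the ligands and partners, 0.119 for astrocyte, 0.0063 for neuronal and -0.12 for border macrophage markers, and -0.0046 for all tested genes. The 9 genes had a median of 0.492 with each other. With 10 libraries such values are a description, and they share library and depth.

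At the level of transcripts, 31 transcripts of the 9 genes were listed, 7 of them at 0 in every library, and 19 passed the filter. By edgeR's quasi-likelihood test 0 of the 19 had an adjusted p under 0.05, against 0.00314% of 31848 tested transcripts, and 0 had an unadjusted p under 0.05, against 1.97% (1.1% higher and 0.873% lower in AM6545). C1qa, C1qb, C1qc and Tmem119 were each represented by 1 transcript with over 95% of the gene's total in both groups. P2ry12-202 held 86.1 ± 5.83% of its gene in vehicle and 84.7 ± 5.28% in AM6545 libraries, and Cx3cr1-202 held 90.0 ± 1.22% and 88.9 ± 2.05% (SD, 5 libraries per group). P2ry12-203, which begins at an exon further upstream and has a coding sequence of the same length, held 8.12 ± 2.33% and 10.2 ± 3.84%.

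Trem2 was split between a pair of coding forms. Trem2-201 held 82.1 ± 1.81% of the gene in vehicle and 82.4 ± 3.43% in AM6545 libraries, and Trem2-202 held 13.8 ± 1.41% and 14.3 ± 2.16% (SD, 5 libraries per group). They differ at the start of exon 4, which begins at base 48351746 of chromosome 17 (GRCm38) in Trem2-201 and at 48351691, 55 bases earlier, in Trem2-202. The coding sequences have 684 and 750 bases and are the same up to base 483. The 30 bases before that point are shown in lower case and the 30 after it, where the reading of the receptor's end part diverges, in capitals:
Trem2-201: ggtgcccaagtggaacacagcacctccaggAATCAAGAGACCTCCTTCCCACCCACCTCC
Trem2-202: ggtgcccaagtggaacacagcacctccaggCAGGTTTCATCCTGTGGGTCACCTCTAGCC

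The share of Trem2-202 in each library was 14.7, 15.1, 13.6, 11.5 and 14.0% in vehicle and 14.5, 15.3, 10.6, 15.6 and 15.7% in AM6545 replicates 1 to 5. The groups overlapped, and AM6545 replicate 3 had the lowest share, on 42.9 estimated counts. Aif1 was split between the coding Aif1-203, with 75.8 ± 7.45% in vehicle and 70.5 ± 9.53% in AM6545 libraries, and Aif1-205, a short form annotated as retaining an intron, with 24.1 ± 7.62% and 29.1 ± 9.20% (SD, 5 libraries per group). The share of Aif1-205 was 15.8, 27.3, 16.6, 33.5 and 27.1% in vehicle and 35.5, 18.7, 36.7, 19.5 and 35.2% in AM6545 libraries, so that 3 AM6545 libraries lay above all vehicle libraries and 2 among them. These estimates came from 38.5 to 86.9 counts per library.

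Csf1r had a split that varied with 1 library. Csf1r-201 and Csf1r-202 have coding sequences of the same length (2934 bases) and differ outside them: the last exon of Csf1r-202 runs 1015 bases further, and the 873 bases that overlap Hmgxb3 on the opposite strand all lie in that extension. Csf1r-202 held 39.7, 4.84, 11.4, 14.5 and 14.5% of the gene in vehicle replicates 1 to 5 and 11.04, 18.9, 9.03, 13.9 and 12.7% in AM6545 replicates 1 to 5. Vehicle replicate 1 was far above and vehicle replicate 2 below the rest. Hmgxb3 had its lowest level in the first, at 9.47 CPM, and its highest in the second, at 24.3 CPM, with 11.2 to 19.7 CPM in the other libraries. Over the 10 libraries the CPM of Hmgxb3 and of Csf1r-202 had r = -0.734 (permutation p = 0.0162, adjusted p = 0.0324 over 2 relations) and rho = -0.58 (permutation p = 0.0891, adjusted p = 0.178). The relation rested on those 2 libraries, since r was -0.098 without them. The CPM of Hmgxb3 and of the whole Csf1r gene had r = 0.284 (permutation p = 0.424, adjusted p = 0.424; rho = 0.32, permutation p = 0.368; r = 0.287 without the same 2 libraries). Whether reads of the overlap moved between the 2 genes was not tested.

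**Figure D5:**
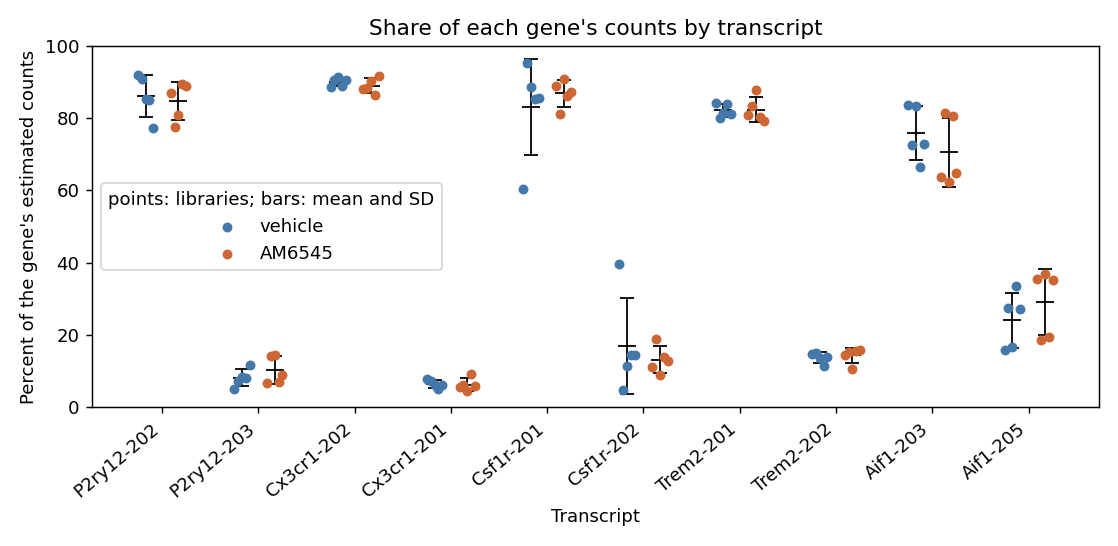
Percent of each gene's total held by its named transcripts, with 1 point per library and bars at the group mean ± SD, for P2ry12, Cx3cr1, Csf1r, Trem2 and Aif1. Vehicle replicate 1 lies apart for Csf1r-201 (60.3%) and Csf1r-202 (39.7%), and the groups overlap for every transcript.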

How the data were processed

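The authors deposited estimated counts per gene and per transcript for 10 libraries, with Salmon 1.5.2 and build mm10 named in the submitters' processing notes. Per the labels' protocols, an RNeasy mini kit gave the RNA and a SMARTer kit for ultra-low input the libraries. The annotation release is not given in the sources used here, and 11 gene identifiers carry the same version as in GENCODE M21, which served for names (22155 of 22255 genes, 101527 of 102392 transcripts), coordinates and lengths. Length is the mean over a gene's transcripts weighted by abundance. Groups and replicate numbers came from the titles. No 2 libraries held identical values.

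The deposited counts were rounded and tested with edgeR 4.0.16 (R 4.3.3, TMM, filterByExpr with minimum count 10 and total 15, group alone, robust quasi-likelihood, two-sided, Benjamini-Hochberg threshold 0.05) across all genes or transcripts. CPM were computed over TMM-scaled totals, and log2 CPM for correlations had a prior count of 2. Correlations had permutation tests of 100000 resamples (scipy 1.17.1). Motifs were searched on both strands, allowing overlaps. Alternatives were other scalings, filters and tests (DESeq2 1.42.0, limma-voom 3.58.1), the replicate number as a block and leaving out each library. The limma-voom fit had sample quality weights, which weight the libraries unequally. A further alternative was removal of each library's running median over genes ordered by length, which was chosen after seeing the data. The edgeR fit was also run on counts simulated with the means and dispersions of these data, and the other fits across genes were not.

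The 9 genes and the gene lists were chosen with earlier results of these data known. The rule for naming a gene of a list was an unadjusted p under 0.05, the highest or lowest level per kilobase, or a fixed set of ligands and complement partners. Genes named beyond that rule (Hmgxb3, the microglial genes named for vehicle replicate 1 and those of low counts) were chosen after their values were seen. A gene that this rule names is not reported here. The labels give no batch, so nothing was recomputed within batches. The floor of 3 counts was 0.116 to 0.166 CPM and covers counting error only, since amplified reads are not independent molecules.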

Additional observations from a re-analysis of the deposited data

Results flagged for a closer look

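In groups of 5 libraries, 46 sets of values were screened for a library far from the others of its group, and 5 were marked, where chance gives about 1 in 20 (2.3 of 46). Trem2 in AM6545 replicate 5 had a log2 CPM of 4.02; the group's other 4 libraries had 4.38 to 4.49. The ratio of summed C1q to summed P2ry12, Cx3cr1 and Csf1r CPM reached 1.49 in vehicle replicate 1 and 0.766 to 0.842 in the rest of that group. In the same library Csf1r-201 held 60.3% of its gene, against 85.4 to 95.2%, and Csf1r-202 held 39.7%, against 4.84 to 14.5%. Such shares of the same gene depend on each other. The 5 marked sets are therefore not 5 separate events to be set against the number that chance gives. Trem2-202 held 10.6% of its gene in AM6545 replicate 3 and 14.5 to 15.7% in the rest of that group.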

How the results depend on the processing

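In the alternatives run, the lowest adjusted p of any of the 9 genes was 0.915. Csf1r and Trem2 kept their direction in 18 of 18 alternatives. Beside the values given above for C1qb, C1qc and Trem2, leaving out vehicle replicate 1 gave log2 fold changes of 0.12 for C1qa, 0.14 for Aif1 and 0.064 for Tmem119. It gave 0.093 for Csf1r, -0.073 for P2ry12 and -0.068 for Cx3cr1. The number of genes with an adjusted p under 0.05, 0 with edgeR (270 at an unadjusted p under 0.05), was 1 with limma-voom and sample quality weights (706 unadjusted). It was 0 to 1 when single libraries were left out (1 without vehicle replicate 3 and 1 without AM6545 replicate 3). The count at an unadjusted p under 0.05 ran from 165 (without AM6545 replicate 4) to 578 (without vehicle replicate 2) when single libraries were left out, and was 433 with no filter on low counts. With limma-voom and sample quality weights the log2 fold changes of C1qb (0.010), C1qc (0.014), Cx3cr1 (0.051) and Tmem119 (0.079) crossed 0. The parts of the test and of the weights in this were not separated. Tmem119 with total count scaling (0.0064) and C1qb with the length trend removed (0.0071) crossed 0 too. Leaving out 1 library gave ranges of -0.017 to 0.12 for C1qa, -0.20 to 0.062 for C1qb, -0.23 to 0.041 for C1qc, -0.077 to 0.033 for P2ry12, -0.15 to 0.040 for Cx3cr1, 0.071 to 0.24 for Csf1r, -0.14 to 0.064 for Tmem119, -0.37 to -0.090 for Trem2 and -0.063 to 0.14 for Aif1. For transcripts they were -0.10 to 0.020 for P2ry12-202, -0.39 to 0.050 for Cx3cr1-201, -0.15 to 0.021 for Cx3cr1-202, -0.41 to 0.26 for Csf1r-202 and -0.22 to 0.068 for Aif1-203. With the longest transcript as length, levels were 40.9 CPM per kb for P2ry12, 15.3 for Cx3cr1, 4.73 for Trem2 and 13.04 for Aif1. The median r over the 36 pairs was 0.344 with plain library totals, 0.592 with the length trend removed and 0.323 (without AM6545 replicate 5) to 0.667 (without vehicle replicate 1) when single libraries were left out. The causes of these movements were not tested.

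Libraries with the same replicate number did not deviate together in every pair (r = -0.14, -0.19, 0.23, 0.39 and 0.06), and not every library correlated best with its own number, so the numbers are not taken as a pairing. With the replicate number as a block, 0 genes had an adjusted p under 0.05 (277 unadjusted), 0 of the 9 genes were called and the log2 fold changes were -0.09 for C1qb and -0.24 for Trem2, while Csf1r-202 moved from -0.17 to 0.0051. Aif1, on 192 counts or more, is the gene most limited by depth.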
